A study of Mus musculus with 12 samples.

Results

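The genes described here are the regulators and a set of target genes of NRF2, the transcription factor encoded by Nfe2l2. They were chosen by gene name, and all 10 were found among the 34745 genes of the expression table: Nfe2l2, Keap1 and Bach1 as regulators, Txn1, Txnrd1 and Srxn1 of the thioredoxin system, Nqo1 and Osgin1 as detoxification and stress genes, and G6pdx and Pgd as suppliers of NADPH. RNA was sequenced from MLE-12, a mouse cell line described as lung alveolar type II (AT II) cells, in cell models of bronchopulmonary dysplasia, the chronic lung disease of preterm infants. Every library is labelled 24 h, and the labels do not say from which step this time runs. Of the 4 groups of 3 libraries, LPS received 100 ng/mL lipopolysaccharide in 21% oxygen, Hyp was kept in 85% oxygen, and LPS + M2-Exo and Hyp + M2-Exo were given in addition 10 µg/mL of exosomes from the alveolar macrophage line MH-S after its polarisation to the M2 state with IL-4. Per the study's methods, the exosomes followed the exposure to oxygen or LPS. Every group is labelled as the same cell line under injury, no library of untreated cells was analysed here, and a difference between hyperoxia and LPS is a difference between the models and not a response to either. The labels do not say whether the 3 libraries of a group came from separate cultures, so p-values measure the spread between these libraries, which may be technical.

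NRF2 is kept low in resting cells by KEAP1, an adaptor that presents it to a CUL3 ubiquitin ligase for degradation. Oxidants and electrophiles modify cysteines of KEAP1, NRF2 then accumulates, pairs with a small MAF protein and binds antioxidant response elements, where the repressor BACH1 can occupy the same sites. Because this control acts on the protein, the RNA of Nfe2l2 is not a measure of NRF2 activity. In lung epithelium the pathway is known for its role in defence against oxygen and inhaled toxicants.

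The libraries held between 16021833 and 24074616 counts, with 22035335 to 24074616 in Hyp, 20231632 to 23414010 in Hyp + M2-Exo, 18700207 to 19185116 in LPS and 16021833 to 18505941 in LPS + M2-Exo. Depth thus differed between the models, and its part in the results was not tested beyond the scalings and filters tried. Of the 8 AT II markers checked, 5 exceeded a mean of 1 CPM (counts scaled to a common library total) in each group, among them Abca3 and Nkx2-1. Sftpa1 and Sftpd were at 0 or 1 count in every library, and Lamp3 and the general epithelial markers Epcam and Krt18 were below a mean of 1 CPM in every group. Summed AT II markers lay at 424 to 437 CPM in LPS, 425 to 442 in LPS + M2-Exo, 248 to 262 in Hyp and 240 to 253 in Hyp + M2-Exo. Within this list Abca3, Nkx2-1 and Sftpc had lower means in Hyp than in LPS, whereas Etv5 (36.1 and 51.2 CPM in LPS and Hyp), Sftpb (1.498 and 4.631) and Lamp3 (0.308 and 0.433) had higher ones. The 9 macrophage markers summed to 387 to 429, 305 to 344, 89.2 to 95.6 and 70.4 to 108 CPM in the same order, with Ptprc at means of 50.0, 36.4, 8.78 and 7.58 CPM, while Siglecf was at or near 0 throughout. The 4 fibroblast markers, mainly Dcn, summed to 810 to 835, 769 to 790, 327 to 355 and 347 to 356 CPM. The 5 epithelial markers summed to 656 to 696, 706 to 738, 875 to 893 and 804 to 928 CPM. The higher sum in hyperoxia was that of Krt19 (means of 499.8 in LPS and 739 in Hyp), while Cdh1 (16.3 and 3.42), Krt8 (157 and 142), Epcam and Krt18 had lower means in Hyp. The 4 endothelial markers summed to 22.6 to 25.6, 25.5 to 26.9, 5.73 to 7.68 and 6.88 to 8.04 CPM, with Tek lower in Hyp (23.3 and 3.67) and Pecam1 (0.306 and 2.06) and Kdr (0.144 and 0.922) higher. The label of AT II epithelium was thus only partly borne out by its defining markers, while markers of macrophages and fibroblasts were present. These moved with the comparison of the models, and their part in every difference between hyperoxia and LPS given here was not tested. In such bulk RNA, fewer cells of a type and less RNA per cell cannot be told apart.

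Promoter sequences were compared for shared elements, and neither of the 2 searched was found in all members. All 10 were matched to RefSeq promoters of the GRCm38.p6 build, 13 in all because Txnrd1 and Pgd have more than 1, each running from 250 bases before to 50 bases after an annotated start. Both strands were searched for the core of the antioxidant response element, spelled TGACNNNGC, and for TGACTCA, the element of AP-1 that shares its opening letters and can overlap it. The core was found in promoters of 5 of the 10 members and in those of 14.0% of 27025 genes, and TGACTCA in 2 of the 10 and in 5.9% of genes. A match describes letters only, and a RefSeq start need not be the one used in these cells. The 250 bases before the start are given for Nfe2l2, G6pdx and Osgin1, the members with the largest differences between the models, and a short stretch around each match is given for the others that had one, on the strand of the gene with matches in capitals. As counted, Osgin1 begins at chr8:119434124 on the plus strand and G6pdx at chrX:74429194 on the minus strand. The bases given for both therefore lie inside the gene as counted, as does the second promoter of Pgd, which begins at chr4:149166771.
Nfe2l2, chr2:75704664-75704913, minus strand, match from -240 to -232 of the start: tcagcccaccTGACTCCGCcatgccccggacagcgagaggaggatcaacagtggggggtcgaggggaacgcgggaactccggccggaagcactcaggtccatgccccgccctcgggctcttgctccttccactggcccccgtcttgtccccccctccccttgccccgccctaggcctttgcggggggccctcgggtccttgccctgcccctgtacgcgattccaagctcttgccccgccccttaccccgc
G6pdx, chrX:74428881-74429130, minus strand, match from -57 to -49: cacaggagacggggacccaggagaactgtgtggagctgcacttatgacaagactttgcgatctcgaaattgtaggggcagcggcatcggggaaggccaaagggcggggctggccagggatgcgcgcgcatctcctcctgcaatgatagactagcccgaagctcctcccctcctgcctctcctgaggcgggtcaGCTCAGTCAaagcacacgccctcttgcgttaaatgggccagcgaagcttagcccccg
Osgin1, chr8:119436897-119437146, plus strand, TGACTCA from -97 to -91: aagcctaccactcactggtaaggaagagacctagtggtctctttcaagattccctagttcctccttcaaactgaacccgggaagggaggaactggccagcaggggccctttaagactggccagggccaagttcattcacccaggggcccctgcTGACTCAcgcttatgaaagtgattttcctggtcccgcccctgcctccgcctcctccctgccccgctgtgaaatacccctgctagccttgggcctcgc
Txnrd1, second of its promoters, chr10:82859104-82859132, plus strand, match from -92 to -84: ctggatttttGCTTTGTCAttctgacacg
Srxn1, chr2:152105412-152105438, plus strand, TGACTCA read on the other strand, from -102 to -96: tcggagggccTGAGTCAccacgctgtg
Srxn1, chr2:152105469-152105495, plus strand, the same element, from -45 to -39: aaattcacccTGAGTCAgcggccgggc
Srxn1, chr2:152105542-152105570, plus strand, core from 29 to 37: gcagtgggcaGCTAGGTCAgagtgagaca
Pgd, second of its promoters, chr4:149166061-149166089, minus strand, core from 4 to 12: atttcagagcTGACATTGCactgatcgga
Keap1, Bach1, Txn1 and Nqo1 had neither string of letters in the windows searched.

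Among the member regulators Nfe2l2, Keap1 and Bach1, Nfe2l2 differed most between the models. The gene lies at chr2:75675513-75704641 on the minus strand of GRCm38, as the table lists it. Its level was 549, 566 and 579 CPM in LPS and 621, 610 and 607 CPM in LPS + M2-Exo. In Hyp it was 226, 219 and 233 CPM, and in Hyp + M2-Exo 248, 217 and 203 CPM. Every hyperoxia library lay below every LPS library, and all 3 libraries of LPS + M2-Exo lay above those of LPS. Nfe2l2 was 2.49-fold lower in Hyp than in LPS, a log2 fold change of -1.32 ± 0.037 (SE) with an adjusted p of 5.57e-08 by edgeR's quasi-likelihood test. With M2-Exo in both models the difference was -1.46 ± 0.068 on the log2 scale, with an adjusted p of 5.84e-07. In size, the first of these exceeded the differences of 84.0% of the genes tested.

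KEAP1, the sensor that holds NRF2 low, is encoded at chr9:21229730-21239332 on the minus strand. Keap1 stood at 84.1, 93.4 and 91.8 CPM in LPS, 88.3, 91.9 and 101 CPM in LPS + M2-Exo, 62.3, 59.1 and 65.0 CPM in Hyp and 53.7, 61.3 and 55.6 CPM in Hyp + M2-Exo. The hyperoxia libraries were again all below the LPS libraries. Keap1 was lower in Hyp by a log2 fold change of -0.53 ± 0.058 (adjusted p = 6.13e-05, edgeR) and, with M2-Exo, by -0.72 ± 0.073 (adjusted p = 3.81e-05). The table's Keap1 overlaps Gm16754, which had 2 to 21 counts per library against at least 1161 for Keap1.

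Bach1, the repressor that competes with NRF2 at its sites, lies at chr16:87698945-87733346 on the plus strand. Its 3 LPS libraries lay close together at 126, 126 and 127 CPM, whereas LPS + M2-Exo held 94.7, 120 and 101 CPM. Hyp had 82.0, 87.5 and 85.4 CPM and Hyp + M2-Exo had 84.6, 72.0 and 93.9 CPM. Thus all 3 libraries of LPS + M2-Exo were below all of LPS, and all hyperoxia libraries were below both. Bach1 was lower in Hyp than in LPS by a log2 fold change of -0.58 ± 0.037 (adjusted p = 2.82e-06, edgeR). With M2-Exo the difference was -0.34 ± 0.11 (adjusted p = 0.0278), and this call was lost under 6 of the 14 alternatives run, among them the omission of LPS + M2-Exo replicate 2 (-0.24, adjusted p = 0.0884), of Hyp + M2-Exo replicate 1 (-0.34, adjusted p = 0.0598) and of Hyp + M2-Exo replicate 2 (-0.23, adjusted p = 0.0882).

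Ratios of the RNA of Nfe2l2 to that of Keap1 and of Bach1 can be given per length, and they do not measure the proteins. The authors' FPKM (fragments scaled to gene length and library total) of Nfe2l2 were 13.0, 12.1 and 12.6 times those of Keap1 in the LPS libraries and 14.1, 13.3 and 12.0 times in LPS + M2-Exo. In Hyp the ratio was 7.26, 7.42 and 7.18, and in Hyp + M2-Exo it was 9.21, 7.09 and 7.29, so that the models did not overlap. Over Bach1, the ratio of Nfe2l2 was 7.75, 7.97 and 8.10 in LPS, 11.7, 9.03 and 10.7 in LPS + M2-Exo, 4.92, 4.46 and 4.87 in Hyp and 5.21, 5.37 and 3.85 in Hyp + M2-Exo. In the LPS model the values with M2-Exo lay above those without it over Bach1, whereas over Keap1 they overlapped. In hyperoxia the values with M2-Exo lay on both sides of those without it for both ratios. Of single genes, 17.2% were without overlap between LPS and LPS + M2-Exo. Neither Nfe2l2 nor Bach1 was called there (adjusted p = 0.251 and 0.301, edgeR). With 3 libraries against 3, an exact permutation test cannot go below p = 0.1, and none was run on these ratios. The size of each ratio depends on the gene lengths behind FPKM, which were 3922 bases for Nfe2l2, 7838 for Keap1 and 6984 for Bach1. A comparison of the same ratio between groups does not depend on them.

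Txn1, which encodes cytosolic thioredoxin, the small protein that reduces disulfides, lies at chr4:57943373-57956411 on the minus strand. It was measured at 235, 221 and 181 CPM in LPS and 239, 216 and 267 CPM in LPS + M2-Exo. In Hyp it stood at 166, 177 and 164 CPM and in Hyp + M2-Exo at 164, 169 and 167 CPM. The LPS-model libraries were widely spread and those of hyperoxia close together, without overlap. The pseudogene Txn-ps1 had at most 2 counts in any library. Txn1 was lower in Hyp than in LPS by a log2 fold change of -0.33 ± 0.087 (adjusted p = 0.00838, edgeR), and by -0.53 ± 0.070 with M2-Exo (adjusted p = 0.000196). The first call was lost when limma was run on log2(FPKM + 1), with -0.23 and an adjusted p of 0.0692.

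Txnrd1, the reductase that recycles thioredoxin with NADPH, was nearly level across the groups. It lies at chr10:82859206-82897724 on the plus strand. LPS held 474, 467 and 481 CPM, LPS + M2-Exo 494, 486 and 499 CPM, Hyp 458, 444 and 456 CPM and Hyp + M2-Exo 471, 443 and 426 CPM. Each hyperoxia group lay below its LPS counterpart by a narrow margin, and Hyp + M2-Exo overlapped LPS. The log2 fold change of Hyp against LPS was -0.065 ± 0.029 with a 95% interval of -0.13 to 0.0016, and it missed the threshold of 0.05 (adjusted p = 0.0698, edgeR). Its sign depended on the scaling, since library size alone gave 0.025, and mean FPKM was 135 in LPS and 137 in Hyp. With M2-Exo, Txnrd1 was lower in hyperoxia by -0.14 ± 0.042 (adjusted p = 0.0155), and library size alone gave -0.051 (adjusted p = 0.29). That call was also lost without Hyp + M2-Exo replicate 2 (adjusted p = 0.0596) and without Hyp + M2-Exo replicate 3 (adjusted p = 0.0555).

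Srxn1, which encodes the sulfiredoxin that repairs overoxidised peroxiredoxins, was higher in hyperoxia. The gene lies at chr2:152105516-152111376 on the plus strand. It was at 84.7, 73.4 and 73.3 CPM in LPS, 78.7, 77.4 and 85.3 CPM in LPS + M2-Exo, 96.8, 93.4 and 93.0 CPM in Hyp and 98.3, 86.8 and 91.1 CPM in Hyp + M2-Exo. No LPS-model library reached the lowest hyperoxia library. The log2 fold change was 0.29 ± 0.060 for Hyp against LPS (adjusted p = 0.00231, edgeR) and 0.19 ± 0.063 with M2-Exo (adjusted p = 0.0225). The latter call was lost without LPS + M2-Exo replicate 1 (0.17, adjusted p = 0.0693), without LPS + M2-Exo replicate 2 (0.16, adjusted p = 0.0833) and without Hyp + M2-Exo replicate 1 (0.15, adjusted p = 0.067).

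Nqo1, the quinone reductase that is widely read as a marker of NRF2 activity, lies at chr8:107388225-107403206 on the minus strand. It stood at 27.5, 27.4 and 28.9 CPM in LPS, 29.0, 27.8 and 27.3 CPM in LPS + M2-Exo, 22.1, 21.5 and 22.2 CPM in Hyp and 22.8, 22.6 and 24.6 CPM in Hyp + M2-Exo. The models did not overlap, and the 3 Hyp + M2-Exo libraries were all above those of Hyp. Nqo1 was 1.27-fold lower in Hyp than in LPS, a log2 fold change of -0.35 ± 0.056 (adjusted p = 0.000582, edgeR). With M2-Exo the difference was -0.27 ± 0.069 (adjusted p = 0.00751). That value was -0.18 with library size alone (adjusted p = 0.0457) and -0.17 with limma on log2(FPKM + 1) (adjusted p = 0.0201).

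Osgin1, an oxidative stress-induced growth inhibitor, differed in the opposite direction and had the largest difference of the 10. It lies at chr8:119434124-119446256 on the plus strand. The gene was at 31.2, 31.6 and 64.5 CPM in LPS, 33.9, 65.5 and 34.7 CPM in LPS + M2-Exo, 139, 144 and 144 CPM in Hyp and 142, 146 and 146 CPM in Hyp + M2-Exo. The 6 hyperoxia libraries lay close together and far above the LPS model, in which LPS replicate 3 and LPS + M2-Exo replicate 2 stood at about double the level of the other libraries. Osgin1 was 3.36-fold higher in Hyp than in LPS, with a log2 fold change of 1.75 ± 0.26 (adjusted p = 0.000391, edgeR). With M2-Exo it was 3.24-fold higher, at 1.70 ± 0.23 (adjusted p = 0.000208). With single libraries omitted in turn, the value lay between 1.56 and 2.18 for Hyp against LPS, the upper end without LPS replicate 3, and between 1.53 and 2.07 with M2-Exo. Within LPS the highest library held 2.07 times the lowest, and 1.68% of the 11618 genes with a mean of at least 50 counts had a ratio as large. Few other genes were high in both LPS replicate 3 and LPS + M2-Exo replicate 2. Counting Osgin1, 12 of the 11618 genes were at least 1.5 times as high in both as in the rest of their groups. At the same cut, 20 genes were low in both.

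G6pdx, glucose-6-phosphate dehydrogenase, opens the pentose phosphate pathway and yields NADPH. It lies at chrX:74409483-74429194 on the minus strand. LPS held 141, 144 and 146 CPM, LPS + M2-Exo 146, 144 and 142 CPM, Hyp 66.8, 65.5 and 67.9 CPM and Hyp + M2-Exo 69.7, 61.0 and 62.2 CPM. The spread within each group was small beside the gap between the models. G6pdx was 2.15-fold lower in Hyp than in LPS, with a log2 fold change of -1.11 ± 0.035 (adjusted p = 8.63e-08, edgeR), and 2.24-fold lower with M2-Exo (-1.16 ± 0.058, adjusted p = 7.99e-07). In the table G6pdx overlaps Ikbkg on the opposite strand, and the library kit is not described as keeping strand, so reads of the overlap cannot be assigned with certainty. The means of Ikbkg were 71.5 CPM in LPS, 72.5 in LPS + M2-Exo, 87.9 in Hyp and 85.0 in Hyp + M2-Exo, higher in hyperoxia where G6pdx was lower. The near-identical copy G6pd2 had at most 6 counts in any library.

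Pgd, 6-phosphogluconate dehydrogenase, catalyses a later NADPH-yielding step of the same pathway and lies at chr4:149149991-149166771 on the minus strand. Its levels were 196, 201 and 211 CPM in LPS, 201, 194 and 213 CPM in LPS + M2-Exo, 146, 150 and 149 CPM in Hyp and 162, 149 and 152 CPM in Hyp + M2-Exo. Both hyperoxia groups were below both LPS groups. The log2 fold change was -0.45 ± 0.038 for Hyp against LPS (adjusted p = 1.25e-05, edgeR) and -0.39 ± 0.049 with M2-Exo (adjusted p = 0.000133).

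**Figure D1:**
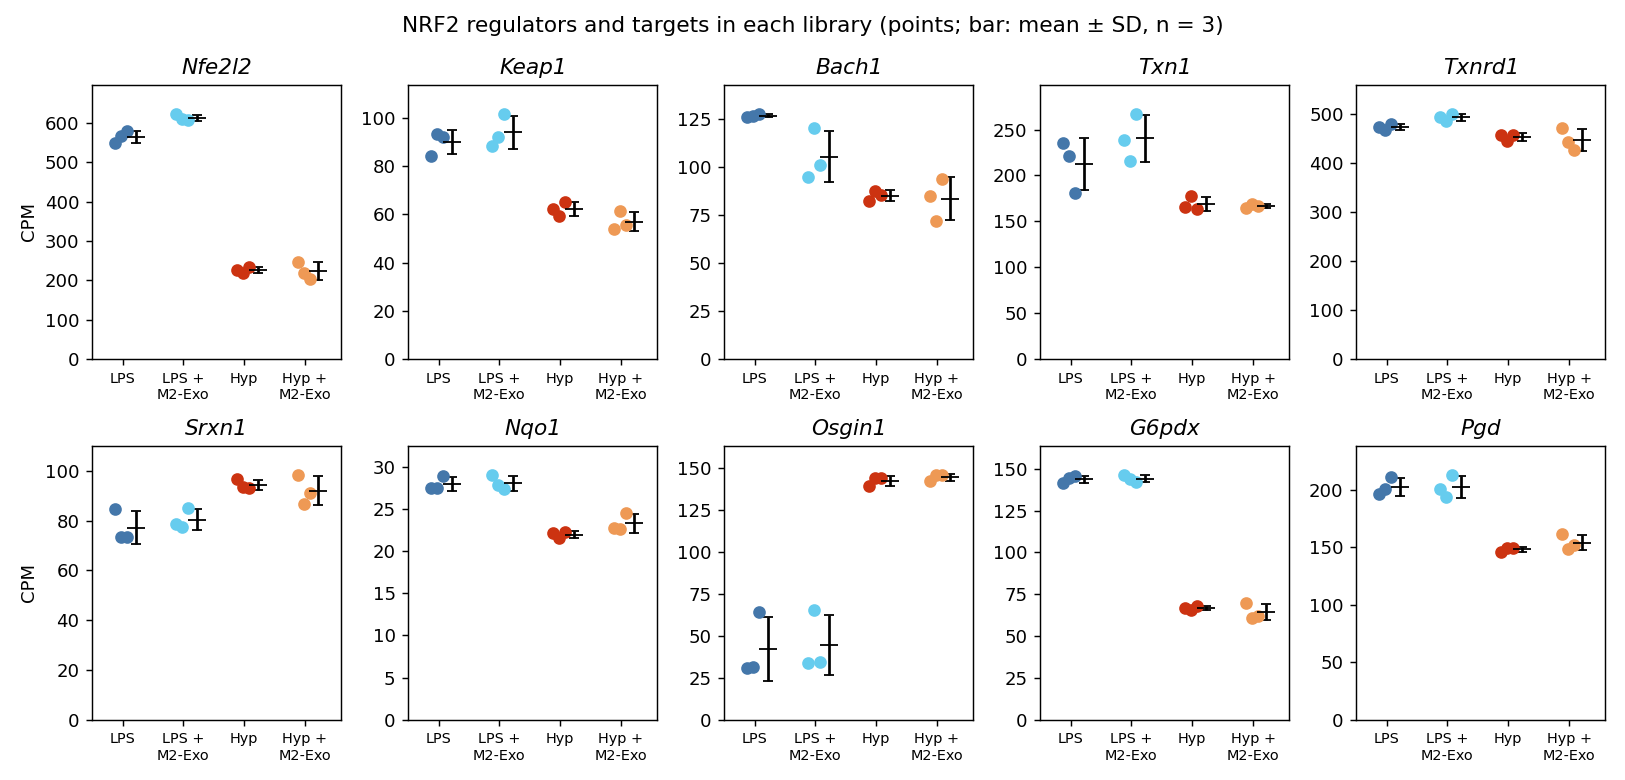
Level in CPM (vertical axis from 0) of each of the 10 genes in every library, by group, with points for the 3 libraries and bars for the mean ± SD. Nfe2l2 and G6pdx lie lower in both hyperoxia groups and Osgin1 lies higher, with LPS replicate 3 and LPS + M2-Exo replicate 2 of Osgin1 at 64.5 and 65.5 CPM.

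Per length, the order of the genes also differed between the models. In LPS the mean FPKM ran from 197 for Txn1, 140 for Nfe2l2 and 135 for Txnrd1 down to 36.2 for G6pdx, 26.9 for Pgd, 20.6 for Srxn1, 17.6 for Bach1, 17.5 for Nqo1, 11.1 for Keap1 and 7.37 for Osgin1. Of the neighbours in this order, Bach1 and Nqo1 overlapped in their libraries, as did Keap1 and Osgin1. In LPS + M2-Exo the order was the same except that Nqo1 (17.5 FPKM) came before Bach1 (14.6 FPKM), and Keap1 and Osgin1 again overlapped. In Hyp the level of Txn1 was 166 FPKM, of Txnrd1 137 and of Nfe2l2 59.7, so that Txnrd1 and Nfe2l2 had changed places. They were followed by Srxn1 at 26.9 and Osgin1 at 26.4 FPKM, which overlapped, then by Pgd at 20.9, G6pdx at 17.9, Nqo1 at 14.6, Bach1 at 12.6 and Keap1 at 8.20 FPKM. Hyp + M2-Exo had Osgin1 (26.7 FPKM) and Srxn1 (26.1 FPKM) in overlap, and G6pdx (17.1 FPKM) and Nqo1 (15.4 FPKM) in overlap. Osgin1 was thus at rank 10 in both LPS groups, at rank 5 in Hyp and at rank 4 in Hyp + M2-Exo. All these ranks depend on the gene lengths behind FPKM, which ran from 1051 bases for Txn1 to 7321 for Pgd and 7838 for Keap1.

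**Figure D2:**
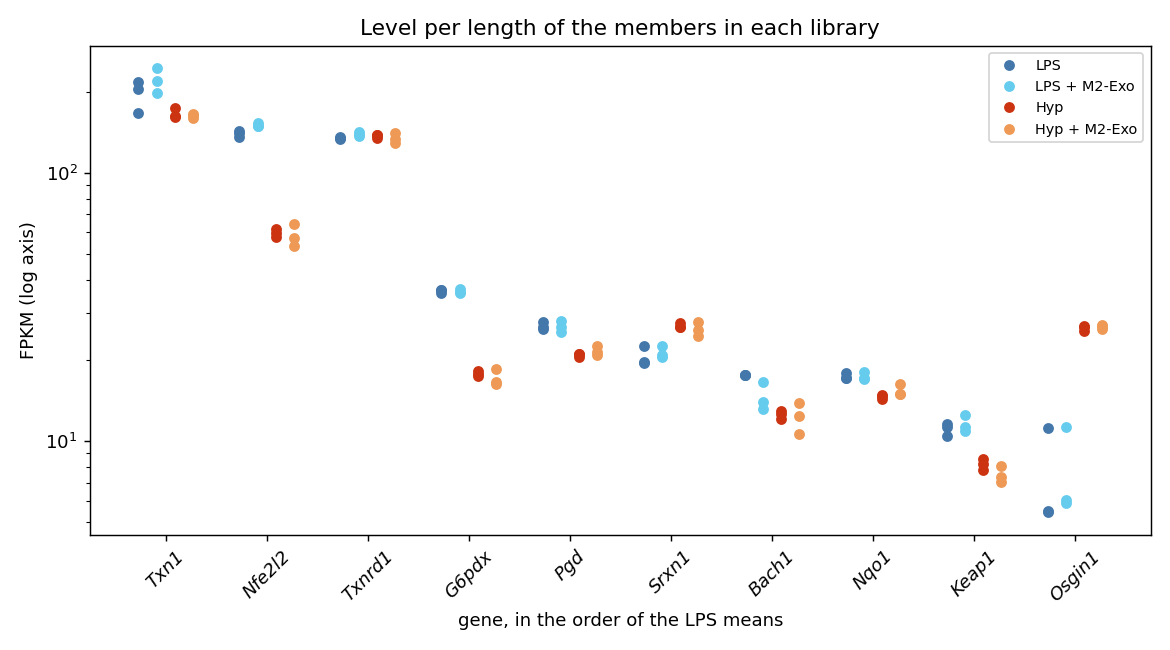
Levels per length of the 10 genes in FPKM on a log axis, 1 point per library and 1 colour per group, with the genes ordered by their LPS means. Mean levels of Osgin1 are 7.37 FPKM in LPS and 26.4 in Hyp, and those of Nfe2l2 are 140 and 59.7.

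Over the comparison of Hyp with LPS, which asks how the models differ without exosomes, 9 of the 10 members passed an adjusted p of 0.05 in edgeR. This count has to be read against a background in which 75.8% of the 13805 genes tested passed. Lower in Hyp were 7 members (Nfe2l2, Keap1, Bach1, Txn1, Nqo1, G6pdx and Pgd), where 37.8% of all genes were called lower, and higher were Srxn1 and Osgin1, 2 members, where 38.0% of all genes were called higher. A difference of at least 1 on the log2 scale, a threshold added after the data were seen, was met by 3 members (Nfe2l2, Osgin1 and G6pdx) and by 24.0% of genes. All 10 were without overlap between the groups, as were 78.7% of genes. The members' median log2 fold change was -0.40, beside 0.0091 over all genes, and their median size was 0.49, beside 0.51.

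In the 6 other libraries, those with M2-Exo, all 10 members had the same direction and all 10 passed the test, 8 lower and 2 higher in hyperoxia. Of the 13660 genes tested there, 73.7% were called, 36.5% lower and 37.1% higher. The same 3 members had a difference of at least 1 on the log2 scale, with 24.0% of all genes, and all 10 members were without overlap, with 77.0% of all genes. The members' median was -0.36, beside 0.0083 over all genes, and their median size 0.46, beside 0.52. Most members therefore differed between the models as most genes did, and the sizes of Nfe2l2, Osgin1 and G6pdx stood at percentiles of 84.0, 89.9 and 79.1 among all genes without M2-Exo and 86.9, 90.1 and 80.6 with it. At the other end, Txnrd1 stood at percentiles of 7.08 and 15.5.

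**Figure D3:**
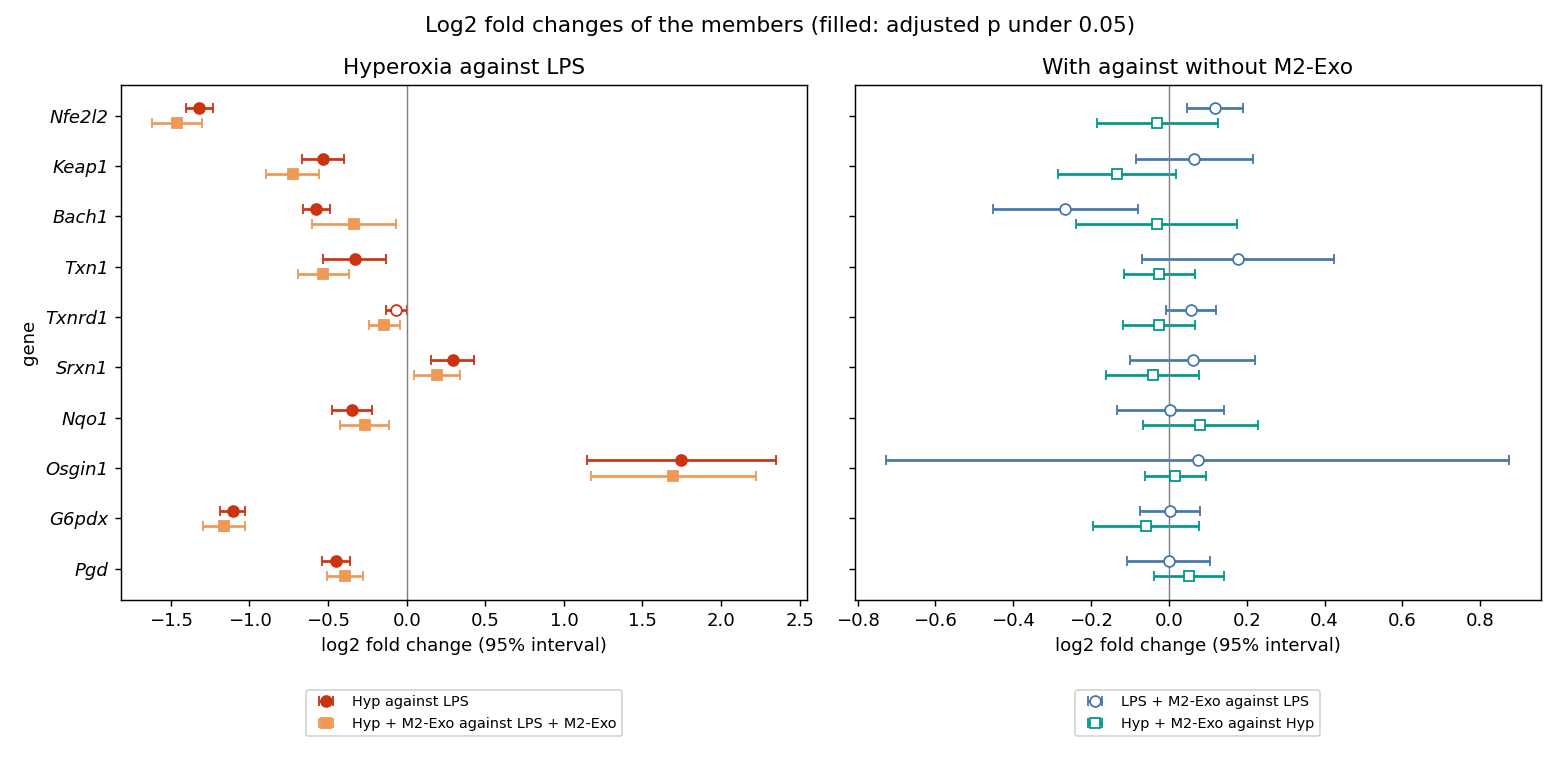
Log2 fold changes of the 10 genes with 95% intervals (horizontal axes, which differ in range between the panels), for hyperoxia against LPS on the left and for M2-Exo on the right, filled where the adjusted p was under 0.05. On the left the values run from -1.46 for Nfe2l2 to 1.75 for Osgin1, and on the right no point is filled.

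Addition of M2-Exo asks whether the exosomes moved these genes within a model. In the LPS model 0 of the 10 members passed an adjusted p of 0.05 in edgeR, where 25 of 13353 genes did (0.187%), and DESeq2 also called 0 members. At an unadjusted p under 0.05 there were 2 members, and 11.1% of all genes. Nfe2l2 was higher by a log2 fold change of 0.12 ± 0.031 (95% interval 0.046 to 0.19, adjusted p = 0.251), and Bach1 was lower by -0.27 ± 0.081 (-0.45 to -0.081, adjusted p = 0.301). Bach1 passed when LPS + M2-Exo replicate 2 was left out (-0.37, adjusted p = 0.0422), and its adjusted p ranged from 0.0422 to 0.592 over all alternatives. Nfe2l2, Bach1 and Txnrd1, 3 members, were without overlap between the groups, as were 17.2% of genes. For Txnrd1 the log2 fold change was 0.057 ± 0.028 (adjusted p = 0.513). The summed macrophage and fibroblast markers were lower in LPS + M2-Exo than in LPS, and the summed epithelial markers higher, without overlap as given above. Some genes went against their sum, among them Mrc1 (0.813 CPM in LPS and 1.22 in LPS + M2-Exo), Col1a1 (11.0 and 12.1) and Krt8 (157 and 145). The part of these markers in the M2-Exo values was not tested.

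For the other members, 95% intervals give the range of the M2-Exo difference in the LPS model. Nqo1 had a log2 fold change of 0.0038 with a 95% interval of -0.13 to 0.14, G6pdx one of 0.0032 with -0.074 to 0.080, and Pgd one of -0.00099 with -0.11 to 0.11. Srxn1 gave 0.061 (-0.10 to 0.22), Keap1 0.065 (-0.085 to 0.21) and Txn1 0.18 (-0.068 to 0.42), and with single libraries omitted these ran from 0.016 to 0.13, from 0.0047 to 0.10 and from 0.071 to 0.25. The interval of Osgin1 was far wider, from -0.73 to 0.87, and with single libraries omitted in turn its value lay between -0.31 and 0.51.

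In hyperoxia 0 of the 10 members passed in edgeR with M2-Exo, where 14 of 13815 genes did (0.101%), 0 had an unadjusted p under 0.05 beside 8.48% of all genes, and DESeq2 called 0. Nqo1, 1 member, was without overlap between Hyp and Hyp + M2-Exo, as were 16.0% of genes. It was higher with M2-Exo by a log2 fold change of 0.081 ± 0.063 (95% interval -0.066 to 0.23, adjusted p = 0.719). Keap1 had the largest value, at -0.13 ± 0.065 (-0.28 to 0.018, adjusted p = 0.602). The 95% intervals of all 10 members lay between -0.28 and 0.23, and that of Osgin1 ran from -0.062 to 0.095. Nfe2l2 was at -0.030 (-0.19 to 0.13) and Bach1 at -0.031 (-0.24 to 0.18).

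Whether M2-Exo acted differently in the models was tested as an interaction over the 12 libraries. Of the 10 members 0 passed in edgeR, beside 5 of 14187 genes (0.0352%), and 0 had an unadjusted p under 0.05 beside 9.78% of all genes, with 0 members called by DESeq2. The values of Nfe2l2, Keap1 and Bach1 were -0.14 ± 0.082 (adjusted p = 0.617), -0.19 ± 0.096 (adjusted p = 0.554) and 0.24 ± 0.13 (adjusted p = 0.587), signed as the effect in hyperoxia minus that in LPS. These comparisons share their libraries with those above and are not further evidence for them.

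Around the members, other genes of the pathway were described from 4 lists. Of 99 listed genes 98 were in the table and 91 were tested in Hyp against LPS, and 26 of these were higher and 49 lower, with 16 not called. Over all genes tested 75.8% were called, 38.0% higher and 37.8% lower, and each list's count is to be read against these shares. Among partners and regulators of NRF2, 7 of 21 were higher and 11 lower. The small MAF genes Maff and Mafk, whose products pair with NRF2, were higher in Hyp than in LPS. Maff had means of 85.6 CPM in LPS and 216 in Hyp (log2 fold change 1.34), and Mafk of 103 and 223 CPM (1.11). Bach2, the relative of Bach1, was lower in Hyp by 3.22 on the log2 scale, at 24.4 CPM in LPS and 2.64 in Hyp. Nfe2l3, a relative of Nfe2l2, was lower by 3.09, at 21.2 and 2.47 CPM. With M2-Exo 7 of 21 were higher and 8 lower, beside 37.1% and 36.5% of all genes, and the same 4 genes led.

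Of 39 other target genes of NRF2, 8 were higher and 24 lower in Hyp, with a median of -0.37, beside 38.0% of all genes called higher, 37.8% called lower and a median over all genes of 0.0091. With M2-Exo the count was 7 higher and 25 lower, with a median of -0.36. Over all genes there, 37.1% were called higher and 36.5% lower, with a median of 0.0083. Gstm1 and Gstm2, glutathione transferases, fell by 2.97 and 2.19 on the log2 scale, Gstm1 from 109 to 13.8 CPM. Furthest above LPS in Hyp were genes with few counts in LPS, namely the export pump Abcc2, with 3 to 11 counts per library in LPS and 105 to 130 in Hyp, and the transferase Gsta2, with 2 to 10 and 65 to 78. Reads of the Gsta and Gstm families may be split between near-identical members. Named after their values were seen, heme oxygenase Hmox1 and the cystine importer Slc7a11 were higher in Hyp than in LPS, against the direction of Nqo1. Hmox1 was at 107 CPM in LPS and 325 in Hyp (1.60 ± 0.037, adjusted p = 2.77e-08, edgeR), and Slc7a11 at 47.8 and 116 CPM (1.28 ± 0.046, adjusted p = 1.51e-07).

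Beside Txn1, Txnrd1 and Srxn1, 8 of 21 genes of the thioredoxin and peroxiredoxin system were higher in Hyp and 10 lower, with a median of -0.064, against the same shares of all genes. Sesn2 and Nxn were higher in Hyp by 1.66 and 1.32 on the log2 scale, with means there of 70.2 and 8.13 CPM. Sesn1 and Prdx2 were lower by 1.85 and 1.09, with means in Hyp of 13.6 and 99.8 CPM. Sestrins are stress proteins that restrain mTORC1, and Prdx2 is a peroxide-reducing enzyme that depends on thioredoxin. In the list of pentose phosphate and NADPH supply, to which G6pdx and Pgd belong by function, 3 of 15 were higher and 8 lower. Mthfd2, of mitochondrial folate metabolism, was higher in Hyp by 1.75 and Tigar, a regulator of glycolysis, by 0.71, whereas Idh1 and H6pd, both NADPH-yielding dehydrogenases, were lower by 1.81 and 1.72. With M2-Exo the thioredoxin list had 7 of 21 higher and 10 lower, and the NADPH list 3 of 15 higher and 11 lower. Over all genes 37.1% were called higher there and 36.5% lower. In the NADPH list Idh2 was then furthest below the LPS model, lower by 1.85. In the comparisons of M2-Exo 0 genes of these lists passed in edgeR in either model, with 16 of 89 tested at an unadjusted p under 0.05 in the LPS model, where 11.1% of all genes were, and 7 of 91 in hyperoxia, where 8.48% were. DESeq2 called 2 in the LPS model and 0 in hyperoxia, beside 130 and 37 of all genes.

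**Figure D4:**
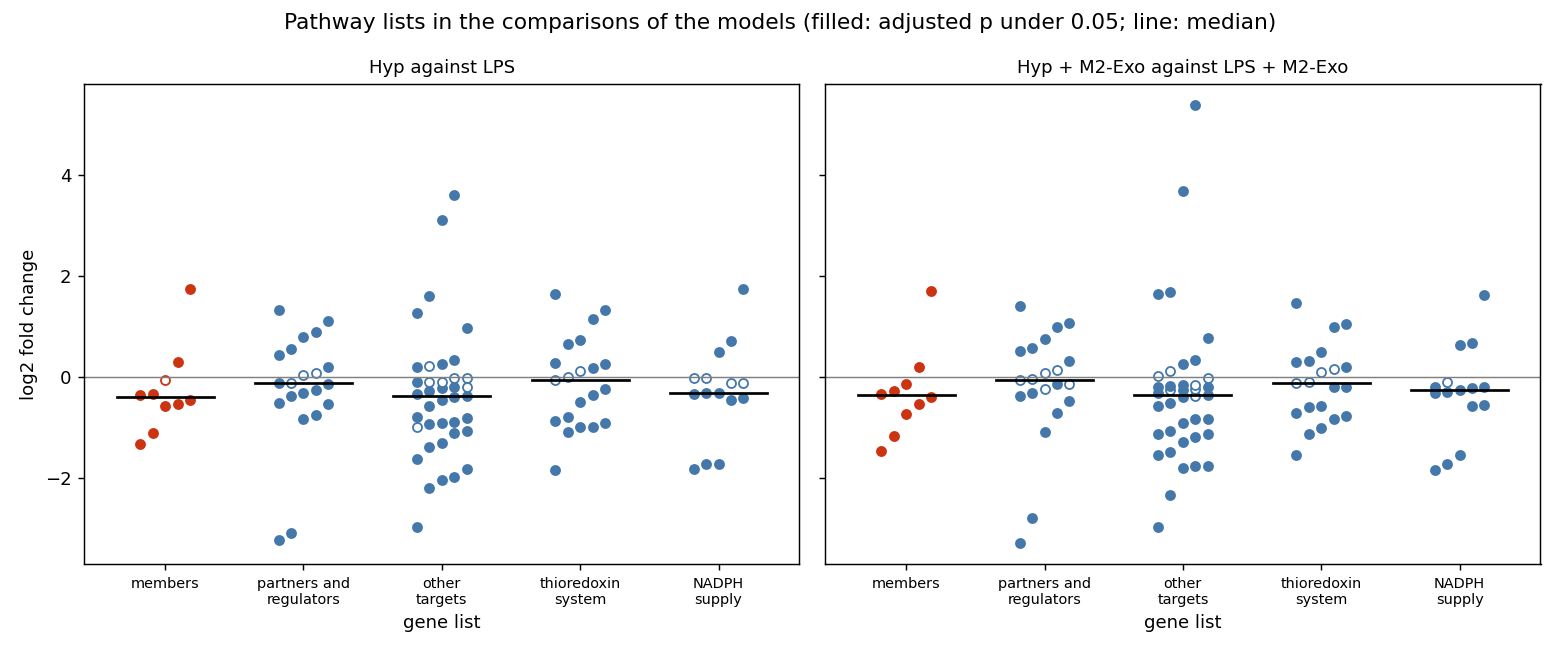
Log2 fold changes of hyperoxia against LPS (vertical axis) for the 10 members and for 4 lists of pathway genes, without M2-Exo on the left and with it on the right, 1 point per tested gene, filled where the adjusted p was under 0.05, with a line at the median of each list. Each list holds genes on both sides of 0, and the line of the other targets lies at -0.37 and -0.36.

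By Pearson correlation of log2 CPM over the 12 libraries, the genes with the pattern most like Nqo1 among 11618 were Slc38a2 (r = 0.987), Fkbp14 (0.984), Arhgef39 (0.983), Atxn7l2 (0.982) and Neo1 (0.982). The 12 libraries fall into the 2 models, so these values are a description of a shared gap between the models.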

How the data were processed

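RNA of 12 MLE-12 libraries was measured on a poly(A)-selected TruSeq kit and an Illumina NovaSeq. Per the labels and the study's methods, reads were filtered with Seqtk and mapped with HISAT2 2.0.4, and the submitters' processing notes also name StringTie 1.3.0 and the GRCm38 build. The authors deposited whole-number counts per gene, not normalized, and FPKM, which followed from the counts, the gene's length and the library total to a relative 0.000733. Counts were tested with edgeR 4.0.16 in R 4.3.3 (quasi-likelihood F test, TMM scaling, filterByExpr, the 6 libraries of each pair or all 12 for the interaction), with Benjamini-Hochberg adjustment over all genes tested. CPM used TMM totals of the 12 libraries, whose factors ran from 0.964 to 1.04. Fits were tested on simulated data. Alternatives were DESeq2 1.42.0, limma 3.58.1 on log2(FPKM + 1), other scalings and filters, a replicate block, 1 library left out at a time, and all 12 libraries in 1 fit. The named genes were the 10 members, up to 2 genes with the largest positive and 2 with the largest negative differences per list among called genes whose higher group had a mean of at least 50 counts, and the 5 genes most like Nqo1. Hmox1 and Slc7a11 were named outside this rule, after their values were seen. The members and lists were chosen with earlier results of these data known. Identifiers of 34267 genes were found in GENCODE M21. Promoter sequences are from RefSeq. Of the listed macrophage markers, 1 is not reported here.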

Additional observations from a re-analysis of the deposited data

How the results depend on the processing

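The log2 fold changes of the 10 members were refitted 750 times under other settings, of which 735 stayed on the same side of the threshold, 14 fell short of it and 1 passed it. No called value changed sign, but 26 of the 735 had the opposite sign, all of values not called: Txnrd1 in Hyp against LPS, and members with small or widely spread values in the comparisons of M2-Exo and the interaction. All 14 were Txn1 without M2-Exo or Bach1, Txnrd1 and Srxn1 with it. With a threshold of at least 1 on the log2 scale added after the data were seen, 3 members were called in each comparison of the models, 3310 and 3273 of all genes, and 26 and 29 of the pathway genes, and 4, 3 and 0 of all genes for M2-Exo in LPS, for M2-Exo in hyperoxia and for the interaction. For these 3 tests DESeq2 called 130, 37 and 70 of all genes, and 2 pathway genes in LPS. All 12 libraries in 1 fit gave 12 and 2 genes for M2-Exo in LPS and in hyperoxia, and no filter on low counts gave 13 for the interaction. With single libraries omitted in turn there were 0 to 1 members, 21 to 39 genes and 0 to 1 pathway genes for M2-Exo in LPS, and 4 to 34 genes for the interaction, the 34 without Hyp + M2-Exo replicate 1 and the 39 without LPS replicate 1; with M2-Exo, 8 to 10 members and 9603 to 9913 of all genes differed between the models.

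The labels give replicates of different groups no tie but a shared number. Correlations of their deviations ran from -0.042 to 0.12 for the same number and from -0.14 to 0.029 for different numbers. In Hyp against LPS and in Hyp + M2-Exo against Hyp, the same-number value of each replicate lay above its different-number ones. The reverse was found in places, as for replicate 3 in Hyp + M2-Exo against LPS + M2-Exo (-0.042, beside 0.015 to 0.029). A replicate block called 6, 8 and 3 of all genes for M2-Exo in LPS, in hyperoxia and for the interaction, with 0 members, and Bach1 with M2-Exo had -0.34 and an adjusted p of 0.0556 in the comparison of the models. Nqo1, with 429 to 554 counts per library, had the fewest counts of the members.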
